A study of Mus musculus with 10 samples.

Results

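The GDNF family comprises 4 secreted ligands and the receptor parts that bind them: the ligand-binding coreceptors of the GFRα group, encoded by Gfra1, Gfra2, Gfra3 and Gfra4, and the shared signaling receptor encoded by Ret. The ligands are glial cell line-derived neurotrophic factor (Gdnf), neurturin (Nrtn), artemin (Artn) and persephin (Pspn). These 9 genes were picked by symbol out of the 27372 named genes on the array, and 12 probes read them. No measured value entered the rule, but earlier results of these data were known when the family was chosen. Gfra4 has 4 probes, and each of the other 8 genes has 1.

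In this family a ligand dimer first binds a GFRα protein, which is anchored to the outer membrane by a lipid and has no kinase of its own, and the complex then brings together RET, a receptor tyrosine kinase that passes the signal to adaptors inside the cell. Each ligand has a preferred partner: GDNF binds GFRα1, neurturin GFRα2, artemin GFRα3 and persephin GFRα4. In the testis, GDNF from the somatic cells around the seminiferous tubule is needed for the self-renewal of spermatogonial stem cells, and GFRα1 is the usual marker of the undifferentiated spermatogonia that include them.

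RNA came from 2 kinds of mouse spermatogonia, in 10 samples with 1 array each. Germline stem (GS) cells are spermatogonia that divide in culture when FGF2 and GDNF are supplied. They were wild type by the labels, were deprived of FGF2 and GDNF for 3 days, and were then held for 24 hr either with FGF5 at 100 ng/mL (2 samples) or without it (2 samples), so neither culture group contained added GDNF. Their strain is C57BL/6 by the sample labels and an intercross of C57BL/6 and ICR by the methods. GFRα1+ cells were sorted by flow cytometry from testes of mice aged 2.5 months that were WT (3 samples) or Fgf5-/- (3 samples), on C57BL/6. All sorted samples, WT included, came from mice with an EGFP knock-in at Gfra1, and the sort gated on that EGFP, so Gfra1 expression was itself the selection. Whether these mice were hetero- or homozygous for the knock-in, and how many animals a sample pooled, is not given in the sources used here. FGF5 is a fibroblast growth factor, and the study asked what it does to spermatogonia in a dish and what its absence does to them in the animal.

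The unit throughout is the log2 signal, the log2 of the scanner's background-subtracted signal minus the 75th percentile of that array, so that 0 is a fairly bright spot and each step of 1 is a doubling. "Well above background" is the scanner software's own call for a spot. Between 55.3% and 65.9% of the 55681 probes carried that call on an array, and 0 were saturated. Signals of different probes are not set against each other, since each probe has its own binding strength. All 8 listed markers of undifferentiated spermatogonia other than the family itself (Zbtb16, Lin28a, Sall4, Utf1, Nanos3, Cdh1, Upp1 and Pou5f1) and all 6 general germ cell markers were well above background on all 10 arrays. The call does not give the level. With the array's 75th percentile as 1, the 8 undifferentiated markers summed to 106 to 133 in cultured and 96.1 to 124 in sorted samples. Zbtb16 was the largest part of that sum, and the like sums do not hold gene by gene. Of the 8, 4 had higher means in culture and 4 lower. Cdh1, 1 of the lower, was at -3.61 to -3.00 in cultured and -0.55 to 0.21 in sorted samples. Another 6 markers, of spermatids, summed to 0.85 to 1.04 and 4.52 to 16.0. A further 6, of differentiating spermatogonia, summed to 63.8 to 87.4 and 122 to 145. Of these last 6, 2 had higher means in culture and 4 lower. Most of the gap between their sums was Stra8, at 2.57 to 3.28 in culture and 5.76 to 6.14 in sorted samples. The 4 culture arrays shared 1 slide and scan, and the 6 sorted arrays shared another, so culture against sorted cells cannot be told apart from slide against slide. Nor can it be told apart from the 3 days without FGF2 and GDNF that all culture samples shared. In such bulk RNA, fewer cells of a type and less RNA per cell cannot be told apart.

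Probes define what was read, and for Gfra4 they matter to the outcome, so the first 30 of the 60 bases of the 7 probes for Gfra1, Gfra2, Ret and Gfra4 are printed here as the array design lists them, 5′ to 3′, with runs of at least 4 G or C in capitals. Positions are in mm9 for the whole probe. The Gfra1 probe (NM_010279, minus strand, 41.7% G or C), the Gfra2 probe (NM_008115, plus strand, 48.3%) and the Ret probe (minus strand, 35%) come first. The Ret probe is listed for both RefSeq transcripts of the gene, NM_001080780 and NM_009050, so its signal does not separate the RET isoforms. The 4 Gfra4 probes follow from the gene's 3′ side to its 5′ side. All of them lie on the minus strand of chromosome 2. Of these, 3 had 55% G or C, while the last, A_55_P2039196, had 75%.
Gfra1 A_52_P398998, chr19:58311604-58311663: ccacaacttagaacagtttggattcaaggt
Gfra2 A_55_P1968703, chr14:71379586-71379645: tgcattcactcttaaccaagctccaataaa
Ret A_55_P2160676, chr6:118101791-118101850: ccataccgtgttgacttgtttttgtaatca
Gfra4 A_55_P2039190, chr2:130865376-130865435: aggatctccctgccatggtttCCCCagcac
Gfra4 A_55_P1984118, chr2:130865957-130866016: ttgttttgtcctaaCGCCCaaggtgtcctg
Gfra4 A_55_P1984119, chr2:130866140-130866199: aagcctttgacagcttgcagccatcagttc
Gfra4 A_55_P2039196, chr2:130867132-130867191: ggttggtGCCGCCCtcttgcctggaGCCCC
Of the Gfra4 probes, A_55_P1984118 is listed for 2 RefSeq transcripts (NM_020014 and NM_001136063), and each of the others for 4.

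**Figure D1:**
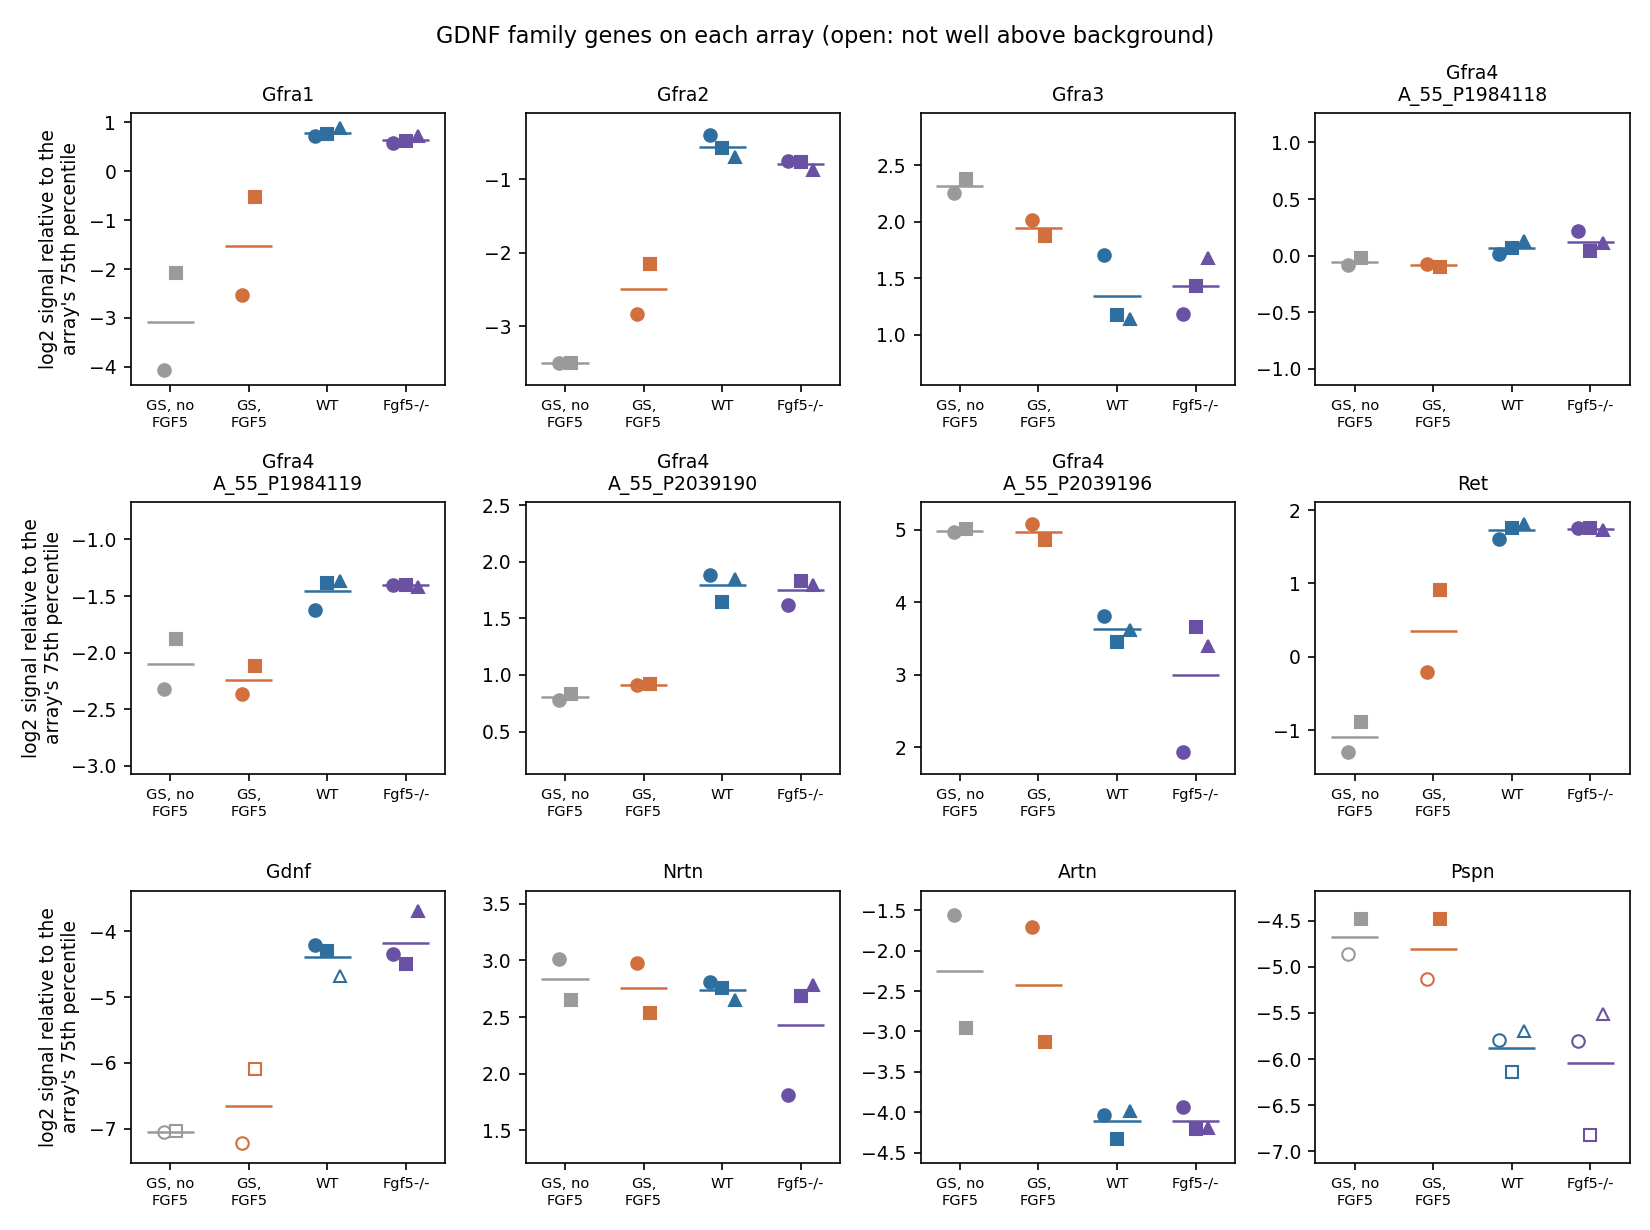
Log2 signal of the 12 probes of the GDNF family on each of the 10 arrays. Each panel is 1 probe with its own vertical range, the horizontal axis gives the group, circle, square and triangle are replicates 1, 2 and 3, lines are group means, and open symbols were not well above background. Gfra1, Gfra2 and Ret sit highest in the sorted cells and lowest in GS cells without FGF5, while the 4 Gfra4 probes do not share 1 direction between cultured and sorted cells.

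The first comparison asked what FGF5 did to the family in GS cells. The study named Gfra1 and Ret among the genes raised by FGF5 in these cultures. In FGF5-treated cells the mean signals of Gfra1, Ret and Gfra2 were 2.94, 2.72 and 2.002 times those without FGF5, and that of Gfra3 was lower. The log2 differences of the Gfra4 probes and of the 2 tested ligands, Nrtn and Artn, ran from -0.16 to 0.11, with a wide interval for Artn. No probe of the family passed the test, which had 2 samples a group. With single arrays left out, the log2 differences ran from 0.55 to 2.56 for Gfra1 and from 0.88 to 2.01 for Ret. For Gfra2 they ran from 0.67 to 1.34, so that their size depended on which arrays were kept. Between same-numbered samples the differences were 1.54 and 1.57 for Gfra1, 1.09 and 1.80 for Ret, and 0.67 and 1.34 for Gfra2. The labels do not say what a number shares. Of 10 family probes tested (7 genes), 0 passed at an adjusted p of 0.05, where limma called 0 of 34606 probes in all (0%). At an unadjusted p under 0.05 there were 2 family probes, those of Ret and Gfra2, against 882 probes overall (2.55%). Of the 10 probes, 3 were higher in both FGF5 samples than in both controls, where 8.17% of all tested probes were, and 1 was lower in both, where 14.6% were. The median difference over the 10 probes was -0.02, and over all tested probes it was -0.03.

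Ret was at -0.21 and 0.92 in the 2 samples with FGF5 and at -1.30 and -0.89 in the 2 without. Both treated samples lay above both controls, although the treated samples were 1.13 units apart. The difference was 1.45 ± 0.42 (log2, SE), which is 2.72-fold, with a 95% interval of 0.33 to 2.56 and an adjusted p of 1 in limma. For Gfra2, the neurturin coreceptor, signals were -2.83 and -2.16 with FGF5, and -3.50 and -3.49 without. The 2 controls were nearly equal and both treated samples exceeded them. The difference was 1.001 ± 0.268 (2.002-fold, 95% interval 0.29 to 1.71, adjusted p of 1).

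Gfra1 was at -2.53 and -0.52 with FGF5, and at -4.07 and -2.09 without. The groups overlapped, because replicate 1 lay 2.01 units below replicate 2 with FGF5 and 1.98 below it without. The difference was 1.55 ± 0.94 (95% interval -0.93 to 4.04, adjusted p of 1), and within a condition the replicates differed by more than the conditions did. The coreceptor of artemin, Gfra3, ran the other way, at 2.02 and 1.87 with FGF5, and at 2.26 and 2.38 without. Its groups did not overlap, and the difference was -0.37 ± 0.17 (adjusted p of 1). Its probe lies at chr18:34849560-34849619 in mm9.

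The 4 probes of Gfra4, which encodes the persephin coreceptor, differed between FGF5 and control by -0.14 to 0.11. The widest of their 95% intervals, for A_55_P1984119, ran from -0.74 to 0.46. Only A_55_P2039190 had both FGF5 samples (0.91 and 0.92) above both controls (0.78 and 0.83), a difference of 0.11 ± 0.15.

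Ligand transcripts in the cultures did not separate by FGF5. Nrtn was at 2.98 and 2.53 with FGF5 and at 3.01 and 2.65 without, a difference of -0.08 ± 0.24. Artn was at -1.71 and -3.13 with FGF5 and at -1.56 and -2.95 without, a difference of -0.16 ± 0.67. Replicate 1 was the higher of the Artn samples in both conditions, by 1.42 units with FGF5 and 1.39 without. Gdnf, the ligand that had been withheld from the medium, had no culture array of 4 with the well-above-background call and was not tested. Pspn was well above background on 1 of 2 arrays in each culture group (both replicate 2, at -4.48 and -4.48) and was not tested either.

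Markers of fibroblasts, the kind of cell used as feeders under GS cells, did not order the culture samples 1 way. Of 8 such markers (Col1a1, Col1a2, Col3a1, Pdgfra, Pdgfrb, Dcn, Lum and Postn), 6 were well above background on all 4 culture arrays, and Pdgfrb and Lum on none. Of the 6, 2 were higher in replicate 1 in both conditions (Col1a1 and Pdgfra), 3 were higher in replicate 2 in both (Col1a2, Col3a1 and Dcn), and Postn was mixed. Col1a1, a collagen, was at 3.48 and 1.57 with FGF5 and at 3.71 and 2.02 without, so that it and Artn were higher, and Gfra1 and Ret lower, in replicate 1 of each condition. Dcn, the proteoglycan decorin, ran the other way, at -3.06 and -2.59 with FGF5 and at -3.27 and -2.10 without. The summed signal of the 8, with the array's 75th percentile as 1, was 13.1 and 5.21 with FGF5 and 15.0 and 6.52 without, but it was carried by Col1a1: the other 7 summed to 1.91 and 2.25 with FGF5, and to 1.93 and 2.46 without. The part of these cells in the values was not tested.

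A list of 12 genes known to respond to GDNF in spermatogonia was looked at next. No GDNF was added to the cultures. The study named Etv5, Id4 and Ccnd2, besides Gfra1 and Ret of the family, as raised by FGF5 in them. Whether GDNF receptors had a part in the values of these genes was not tested. Of the 10 tested in culture, 0 passed, 8 were higher and 2 lower with FGF5, and the median difference was 2.26 (2.16 with T, at background without FGF5, set to its limit), against -0.03 over all tested probes. In 7 of the 10 both FGF5 samples exceeded both controls, where 8.17% of all tested probes did so. Etv5, an ETS transcription factor needed for stem cell self-renewal, was at 3.05 and 4.32 with FGF5 and at 0.51 and -0.99 without, a difference of 3.93 ± 0.67 (15.2-fold, limma adjusted p of 1). The gene T (brachyury) was at -3.26 and -1.79 with FGF5 and was not well above background on either control array, so that it was at least 4.98-fold higher. T entered the test through the FGF5 group alone, and without it 6 of 9 genes had both FGF5 samples on top. The other genes with both treated samples on top were Bcl6b, Lhx1, Egr2, Id4 and Ccnd2. Nanos2 and Mycn, 2 of the 10, had both treated samples below both controls, where 14.6% of all tested probes did so. Their differences were -0.22 and -0.26. Egr3 and Tspan8 were too dim to test.

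Transcripts of the proteins that RET recruits were followed through a list of 18 adaptors and proximal effectors. Of these, 14 were tested, 0 passed, 6 were higher and 8 lower with FGF5, and the median difference was -0.02. The largest differences were -0.37 ± 0.31 for Gab2, a docking protein, and 0.32 ± 0.20 for Shc1, an adaptor to the RAS pathway (adjusted p of 1 each). Of 5 further genes, 4 were tested and 0 passed. The 5 were Ncam1 and Sdc3, whose proteins bind GDNF, Gas1, related to the GFRα group, and the RET partner Gfral with its ligand Gdf15. Gdf15 differed by 0.38 ± 0.21, and Sdc3, a proteoglycan that binds GDNF, by -0.31 ± 0.23. Gfral itself was called well above background on none of the 10 arrays.

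**Figure D2:**
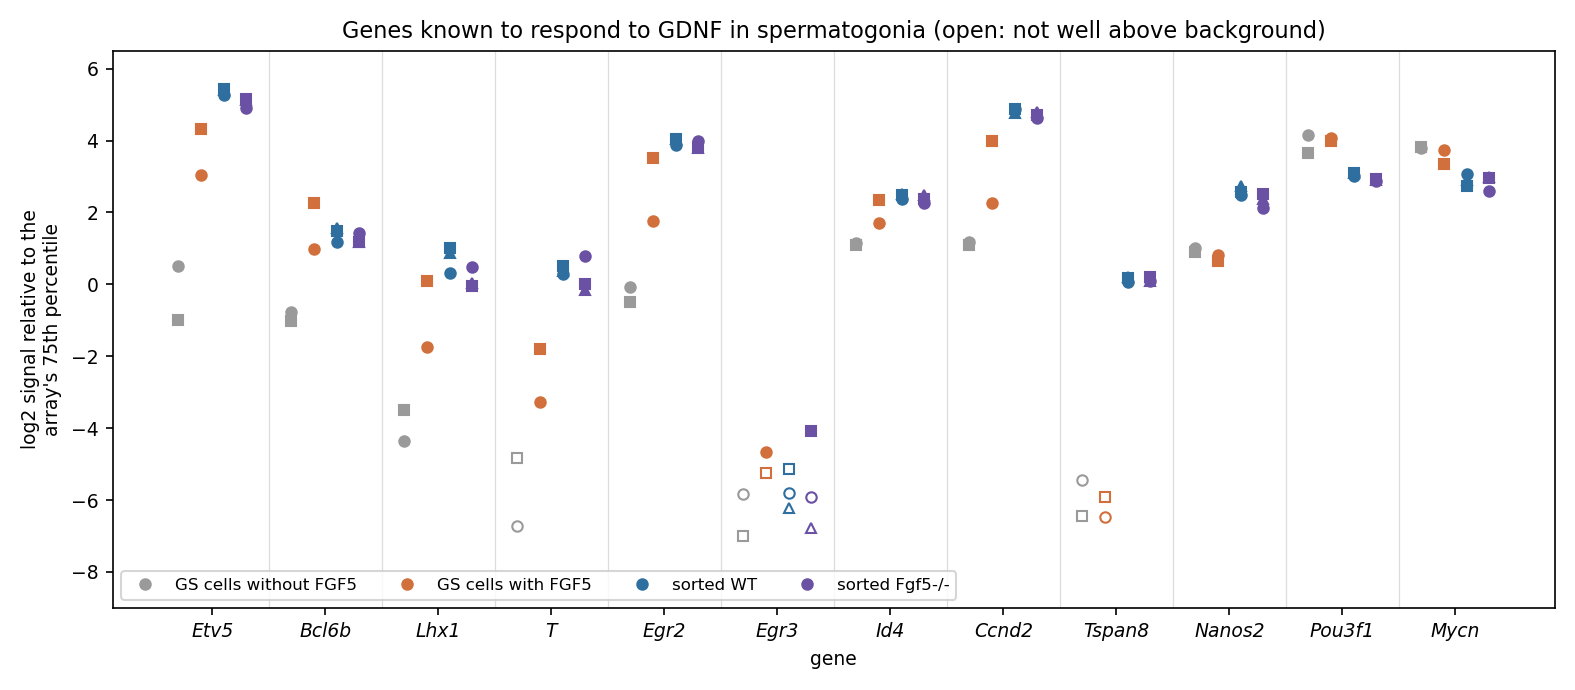
Log2 signal (vertical axis) of 12 genes known to respond to GDNF in spermatogonia (horizontal axis) on each of the 10 arrays. Circle, square and triangle are replicates 1, 2 and 3, and open symbols were not well above background. From Etv5 to Egr2, and for Id4 and Ccnd2, both GS samples with FGF5 lie above both without it. Over the 3 WT and 3 Fgf5-/- samples, the spread is widest for the dim Egr3, from -6.78 to -4.07.

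The second comparison asked what the loss of Fgf5 did to the family in sorted GFRα1+ cells. No receptor probe passed the test between the genotypes. The differences of Gfra1, Gfra2, Gfra3 and Ret ran from -0.24 to 0.09, and those of the 4 Gfra4 probes from -0.63 to 0.05. Of 11 family probes tested (8 genes), 0 passed, where limma called 0 of 30272 probes (0%). At an unadjusted p under 0.05 there were 0 family probes, against 2051 overall (6.78%). No family probe was higher in all 3 Fgf5-/- samples than in all 3 WT samples, where 7.01% of all tested probes were, and 1, that of Gfra2, was lower in all 3, where 9.18% were.

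Gfra2 was at -0.40, -0.58 and -0.70 in WT and at -0.76, -0.76 and -0.88 in Fgf5-/- cells. The gap between the genotypes was smaller than the spread within WT. The difference was -0.24 ± 0.12, with a 95% interval of -0.52 to 0.04 and an adjusted p of 0.738 in limma. Ret was at 1.61, 1.76 and 1.81 in WT and at 1.76, 1.75 and 1.73 in Fgf5-/- cells, so the mutant samples fell inside the WT range. Its difference was 0.02 ± 0.10 (95% interval -0.23 to 0.27, adjusted p of 0.966). Gfra1, on which the sort was gated, was at 0.71, 0.76 and 0.89 in WT and at 0.58, 0.63 and 0.71 in Fgf5-/- cells, a difference of -0.15 ± 0.10 (95% interval -0.40 to 0.10). Gfra3 spanned 1.14 to 1.71 in WT and 1.19 to 1.68 in Fgf5-/- cells.

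A single Fgf5-/- array set the differences of Nrtn and of the Gfra4 probe richest in G and C. For Nrtn, WT samples were at 2.81, 2.76 and 2.65, and Fgf5-/- samples at 1.81, 2.69 and 2.78. For A_55_P2039196 they were at 3.81, 3.46 and 3.61 in WT, and at 1.94, 3.66 and 3.40 in Fgf5-/- cells. Replicate 1 was the low sample in both. The differences were -0.31 ± 0.26 and -0.63 ± 0.44 with all samples, and -0.01 and -0.10 without that array (adjusted p of 0.781 and 0.764 with it). The other 3 Gfra4 probes differed by -0.04 to 0.05 between the genotypes.

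That array was low for probes rich in G and C in general. Over the 315 probes with at least 65% G or C that were well above background on all 10 arrays, its median deviation from the other sorted arrays was -0.28, and 15.6% of these probes were more than 1 unit lower on it. On the other 5 sorted arrays the median deviations for the same probes were -0.09 to 0.14, with at most 1.27% of probes that low. The Nrtn probe has 58.3% G or C and so is not among these. Over the 2996 such probes with 55% to 65%, that array's median deviation was -0.09, with 2.6% more than 1 unit lower. Nrtn itself deviated by -0.95 on it. The part of base composition in the Nrtn and Gfra4 values was not tested.

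Gdnf was read near background in sorted cells. It was at -4.20, -4.30 and -4.69 in WT, where the last was not well above background, and at -4.35, -4.49 and -3.69 in Fgf5-/- cells, where all 3 were. The difference was 0.22 ± 0.24 (adjusted p of 0.822). Artn was at -4.03, -4.32 and -3.99 in WT and at -3.93, -4.20 and -4.20 in Fgf5-/- cells, with a difference of 0.00 ± 0.14. Pspn had the call on none of the 6 sorted arrays.

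Among the GDNF-responsive genes, 11 of 12 were tested in the sorted cells and 0 passed. All 11 had means below WT, with a median difference of -0.15 against -0.03 over all tested probes. The share of all tested probes with means below WT was not counted. These genes were read on the same arrays, so their shared direction is not 11 separate readings. All 3 Fgf5-/- samples lay below all 3 WT samples in 2 of the 11, where 9.18% of all tested probes did so. Lhx1, a homeobox transcription factor, differed by -0.58 ± 0.23, and Etv5 by -0.31 ± 0.12 (adjusted p of 0.729 each). Of 14 tested adaptors 9 were higher, 5 lower and 0 passed, with the largest differences for Src (0.29 ± 0.14), a tyrosine kinase, and Shc1 (-0.20 ± 0.11). Gas1, whose protein is related to the GFRα proteins, differed by -0.48 ± 0.14 (adjusted p of 0.729) and Sdc3 by 0.35 ± 0.21.

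**Figure D3:**
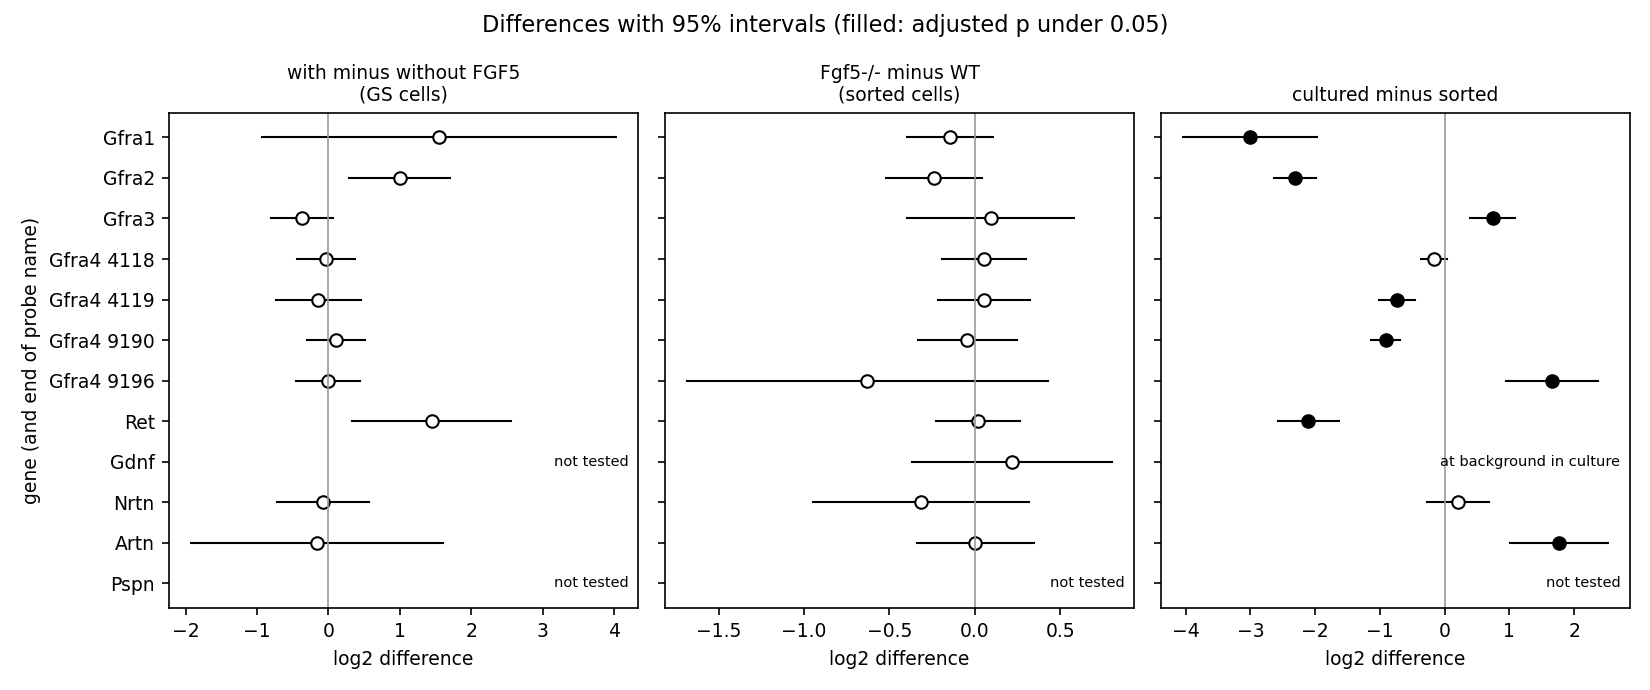
Log2 differences (horizontal axes) of the family's probes in the 3 comparisons, with 95% intervals from limma. Filled points passed at an adjusted p of 0.05, Gfra4 is followed by the last 4 digits of its probe names, and probes too dim to test are marked. No point is filled in the FGF5 and genotype panels, and in the third panel Gfra1, Gfra2 and Ret lie below 0 while Gfra3, Artn and 1 Gfra4 probe lie above it.

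Across the 2 kinds of material, the family differed far more. All cultured samples here had been without FGF2 and GDNF for 3 days. Ret and Gfra2 were 4.31 and 4.97 times higher in sorted cells than in cultured GS cells, averaging over treatment and genotype, Gfra3 and Artn were higher in culture, and Nrtn did not pass the test. Of 11 probes tested, 9 passed (7 genes): 6 were lower in culture, where limma called 25.7% of all 35805 tested probes lower, and 3 were higher, where it called 41.9% higher. In all, 67.6% of tested probes passed. The 6 include Gfra1, for which sorted cells were selected, and Gdnf, which entered the test through sorted cells alone and so had to differ. Without Gdnf, 8 of 10 probes passed, 5 of them lower. The median over all tested probes was itself 0.26 higher in culture, and 0.125 to 0.393 under the other array scalings, so differences are to be read against that shift. The median over the 11 family probes was -0.74, -0.61 with Gdnf, which was at background in culture, set to its limit, and -0.45 without it. Cultured and sorted samples did not overlap in 7 family probes, Gdnf among them, that were lower in culture and in 3 that were higher, where 21.0% and 34.7% of all tested probes were so placed.

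Ret spanned -1.30 to 0.92 over the 4 culture samples and 1.61 to 1.81 over the 6 sorted ones. The order of its levels was GS cells without FGF5, GS cells with FGF5, and then sorted cells, where WT and Fgf5-/- could not be ordered, and the first 2 of these did not pass the test against each other. The difference was -2.11 ± 0.21 (limma adjusted p of 5.33e-05). Set against WT alone in the same fit, Ret was 7.06-fold higher in WT than in GS cells without FGF5 (adjusted p of 0.000185) and 2.59-fold higher than in GS cells with FGF5 (adjusted p of 0.00531). Gfra2 ran from -3.50 to -2.16 in culture and from -0.88 to -0.40 in sorted cells, a difference of -2.31 ± 0.14 (adjusted p of 6.01e-06). WT cells had 7.64-fold more of it than GS cells without FGF5 and 3.81-fold more than those with FGF5. For both genes the GS samples with FGF5 thus lay between the other GS samples and the sorted cells.

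Gfra1 ran from -4.07 to -0.52 in culture and from 0.58 to 0.89 in sorted cells, an 8.08-fold difference of means. Because sorted cells were selected by EGFP from this locus, that value is given as a description. Replicates spread over 2.01 and 1.98 units within the culture groups, and over 0.18 and 0.13 within WT and Fgf5-/- samples. Gfra3 was the receptor with more signal in culture, from 1.87 to 2.38 against 1.14 to 1.71 in sorted cells. The difference was 0.74 ± 0.15 (1.67-fold, adjusted p of 0.00255), which is above the shift of all probes under each scaling.

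The Gfra4 probes disagreed. A_55_P2039190 was lower in culture, at 0.78 to 0.92 against 1.62 to 1.88 in sorted cells, a difference of -0.91 ± 0.10 (adjusted p of 7.43e-05). A_55_P1984119 was lower as well, at -2.37 to -1.88 against -1.63 to -1.37, a difference of -0.74 ± 0.12 (adjusted p of 0.000773). A_55_P1984118 differed by -0.16 ± 0.09 (adjusted p of 0.119). The fourth, A_55_P2039196, was higher in culture, at 4.86 to 5.08 against 1.94 to 3.81, a difference of 1.66 ± 0.31 (adjusted p of 0.00158), and of 1.40 without the low Fgf5-/- array. No direction can therefore be given for Gfra4 as a gene. The probe that rose is the one with 75% G or C whose sequence is shown among the probes, and among all probes with at least 65% G or C and above background on all 10 arrays the median difference was 0.92 and 89.8% were higher in culture, against a median of 0.22 in probes with 55% to 65%. The part of base composition, and of the 2 slides, was not tested.

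Among the ligands, Artn was higher in culture, at -3.13 to -1.56 against -4.32 to -3.93 in sorted cells. The difference was 1.77 ± 0.33 (3.42-fold, adjusted p of 0.00159). The summed fibroblast markers were at 5.21 to 15.0 in culture and at 3.92 to 5.53 in sorted cells, and without Col1a1 at 1.91 to 2.46 and at 0.98 to 1.15, while the single markers did not follow Artn among the culture samples, as given for the FGF5 comparison. Their part in the Artn value was not tested. Nrtn was at 2.53 to 3.01 in culture and at 1.81 to 2.81 in sorted cells, a difference of 0.21 ± 0.21 (adjusted p of 0.392), which is near the shift of all probes.

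Gdnf was well above background on 5 of 6 sorted arrays and on 0 of 4 culture arrays. Against the background limit of the culture arrays it was at least 1.53-fold higher in sorted cells. The sorted mean behind that value includes the WT array that lacked the call. No p is given, since the probe was tested only because all 3 Fgf5-/- arrays read it. GDNF is known as a product of Sertoli and peritubular myoid cells. Over 8 Sertoli cell markers the summed signal was 4.98 to 6.90 in sorted and 2.49 to 3.99 in cultured samples. In sorted cells Rhox5 and Wt1 made up most of that sum, and Sox9, a defining marker, was at -5.08 to -4.20 there, below each of the culture samples. Of the 8, 6 were well above background on all sorted arrays, and Fshr, the receptor for follicle-stimulating hormone, on none. Over 6 peritubular myoid markers it was 0.79 to 1.09 in sorted and 1.44 to 2.14 in cultured samples, and Tagln made up most of it. Whether such cells supplied the Gdnf signal was not tested. Pspn was above background on 2 of 4 culture arrays and 0 of 6 sorted ones. It was not tested, and no fold is given, since replicate 1 of each culture group also lacked the call.

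Of 11 tested GDNF-responsive genes, 9 passed as lower, where 25.7% of all tested probes did, and 2 as higher, where 41.9% did. The median difference was -2.65, also with Tspan8 at its limit, and -2.13 without Tspan8, against 0.26 over all probes. Tspan8, a tetraspanin, was at least 33.0-fold lower in culture, where none of the 4 arrays read it well above background. It entered the test through sorted cells alone, and without it 8 of 10 genes passed as lower. Etv5 differed by -3.50 ± 0.32 (adjusted p of 3.94e-05), Lhx1 by -2.82 ± 0.36 (adjusted p of 0.000201) and T by -4.46 ± 0.42 (adjusted p of 4.18e-05), with T not well above background on the 2 culture arrays without FGF5. Pou3f1 and Mycn were the 2 that were higher in culture, by 0.98 ± 0.11 and 0.80 ± 0.13 (adjusted p of 0.000125 and 0.00074).

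Of 15 tested adaptors and effectors, 11 were lower in culture, where 25.7% of all tested probes were, 1 was higher, where 41.9% were, and 3 did not pass, with a median of -0.45. Grb10, an adaptor that binds activated RET, was at least 8.28-fold lower in culture, where again none of the 4 arrays read it well above background. It too entered through sorted cells alone, and without it 10 of 14 were lower, with a median of -0.39. Dok2, a docking protein, differed by -1.30 ± 0.27 (adjusted p of 0.00284), Shc1 by -0.99 ± 0.11 (adjusted p of 0.000104) and Gab1, another docking protein, by -0.59 ± 0.14 (adjusted p of 0.00492). Src was the 1 higher, by 0.42 ± 0.11 (adjusted p of 0.00876). All 4 tested genes among the further receptors, coreceptors and ligands outside the family passed, in a comparison where 67.6% of all tested probes did. Ncam1, a cell adhesion molecule that can bind GDNF without RET, was lower in culture by 0.69 ± 0.13, while Sdc3, Gdf15 and Gas1 were higher, by 2.64 ± 0.17, 0.71 ± 0.21 and 0.67 ± 0.13.

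Genes whose signal ran most like those of Gfra1 and Ret were sought over the 10 arrays, among 15107 genes well above background on all of them, by the root mean square of the differences between mean-centered log2 signals. Nearest to Ret were Slc9a3r1 (0.17), St14 (0.17) and Fam43a (0.19). Nearest to Gfra1 were Rapgef3 (0.24), Chn2 (0.26) and 5730416F02Rik (0.27). Slc9a3r1, for example, spanned -1.19 to -0.26 in GS cells without FGF5, 0.03 to 1.34 with FGF5, 1.998 to 2.321 in WT and 1.84 to 2.05 in Fgf5-/- cells. Rapgef3, which encodes a cAMP-activated exchange factor, spanned -1.44 to 0.57, 0.07 to 2.27, 2.96 to 3.03 and 2.99 to 3.41 in the same groups. All 10 arrays entered the measure, so the step between cultured and sorted arrays, which also lie on different slides, is part of it.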

How the data were processed

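Expression was measured on 1-color Agilent whole mouse genome arrays, Cy3 being the dye. The scanner files that the authors deposited hold each spot's intensity on a linear scale, background-subtracted by Agilent Feature Extraction (10.7.1.1 by the file headers, 10.7.3.1 by the submitters' processing notes). The authors also deposited a table of log2 values shifted to the 75th percentile, which differ from the log2 of the scanner intensity by 1 constant per array. It served as an alternative. The floor of 1 applied by the authors changed 0 spots here.

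Values were recomputed from the scanner files with limma 3.58.1 in R 4.3.3. Spots that the scanner software flagged for unevenness or as outliers of their population were dropped (117 to 205 of the 59305 non-control spots an array). The log2 signals of repeated spots were averaged, less the 75th percentile of the array. Tested probes were those with the well-above-background call throughout at least 1 group. The 3 comparisons were fitted with lmFit and eBayes on the groups they concern, two-sided, with Benjamini-Hochberg adjustment over all tested probes. Intervals are 95% intervals of limma's moderated test. The model was tested on simulated data. Dim probes carry the largest relative error, and the number of arrays limits the precision. Samples are from independent experiments by the labels, 2 in culture and 3 for the sorted cells. Within the culture slide, and within the sorted slide, conditions also differed in their place on the slide.

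A fold against a group with no array well above background was taken against the lowest signal well above background on each array, or the probe's own signal where higher, and is written as at least that fold. Gene names are those of the culture files, carried to the sorted arrays by probe name, and all 9 members were matched in RefSeq's genes for GRCm38.p6, used for names only. Coordinates are in mm9. The members and the lists of pathway and marker genes were chosen with earlier results of these data known. A list gene was read by its probe with the highest mean signal. All members were named. From each list, those past the threshold were named (at most 4 in each direction, by size), or the 2 tested genes with the largest difference where none passed, and other list genes that appear were named after their values were seen. Alternatives were quantile normalization, the percentile over probes well above background, the authors' table, normexp with an offset of 50, flagged spots kept, no or a stricter filter, a variance trend, the replicate number as a block, single cultured groups against WT, and each array left out in turn.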

Additional observations from a re-analysis of the deposited data

How the results depend on the processing

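No family probe passed in the FGF5 or the genotype comparison under any alternative (0 throughout, also with each array left out), and the count for cultured against sorted cells stayed between 8 and 10, against the 9 reported. The replicate block left both counts at 0: numbers were not taken as pairs, since the labels do not say what a number shares. Same-numbered samples deviated together in culture (r = 0.636, 2 numbers only) and not in the sorted experiment (r = -0.42, -0.156 and -0.149). With the block, Gfra1 differed by 1.55 ± 0.12 between FGF5 and control (adjusted p of 0.231) and changed no call. In culture, Nrtn turned to 0.00585 under normexp, and with single arrays left out ran from -0.30 to 0.15, Artn from -0.87 to 0.55, Gfra4 A_55_P1984119 from -0.36 to 0.0794 and A_55_P2039196 from -0.12 to 0.10. Between genotypes, Artn turned to -0.0134 under quantile normalization, -0.00762 in the authors' table and -0.0695 under normexp, Ret to -0.12 under normexp, and Gfra4 A_55_P2039190 to 0.000284 under quantile normalization and 0.0139 with the percentile over probes above background. With single arrays left out the genotype differences ran from -0.10 to 0.0674 for Artn, -0.0391 to 0.0615 for Ret, -0.0320 to 0.27 for Gfra3, -0.0257 to 0.37 for Gdnf, -0.0289 to 0.10 for Gfra4 A_55_P1984119 and -0.12 to 0.0230 for A_55_P2039190. None of these values passed a test at any setting. Between cultured and sorted cells all directions held, and Gfra4 A_55_P1984118 passed in the authors' table (adjusted p of 0.0494) and under normexp (0.0222). The fitted Gdnf difference, read from culture arrays at background, shrank from -2.56 to -0.38 under normexp, where the offset compresses dim signals.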
